A study of Lotus japonicus with 10 samples.

Results

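The glycosyltransferases described here are the 64 probes, for 32 gene names, whose names on the array begin with FOLGT or IFLGT, out of 5716 probes for 3148 names. The prefixes are the array designers' own and are read here as flavonoid and isoflavonoid glycosyltransferases. The files give no description of either, and 0 of the names, loci or name stems occur in the reference gene table. Each prefix has 16 names, every name has 2 probes, and the members were taken by prefix alone. That rule uses no measured value, but it was chosen with earlier results of these data known. The probe of a name with the higher mean over all arrays is called probe a and the other probe b.

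UDP-glycosyltransferases move a sugar from a UDP-sugar donor onto a small acceptor molecule. For flavonoids and isoflavonoids the sugar raises solubility and allows storage in the vacuole, and beta-glucosidases can later release the free compound. In Lotus japonicus, as in other legumes, isoflavonoids include defence compounds, among them the phytoalexin vestitol, and flavonols and condensed tannins are products of neighbouring branches of the same pathway. A gene name of this superfamily rarely fixes the acceptor, so the prefixes say which substrates were proposed and not which were measured.

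Total RNA from mature MG20 leaves (Lotus japonicus is a model legume), taken from plants grown in a glasshouse, was labelled with Cy3 and measured on 10 one-colour Agilent arrays. There were 4 arrays of unelicited leaves, given a time of 0 h, 3 of leaves after 3 h in 10 mM glutathione (GSH), and 3 of leaves after 6 h in 10 mM GSH. GSH is a thiol tripeptide that the study used as an elicitor of defence responses. The GSH leaves were cut from the plant, immersed and shaken at 200 rpm and 28 °C, and no leaves kept the same way without GSH were analysed here, so each comparison with unelicited leaves covers detachment, immersion, warmth and time together with GSH. The labels call the samples of a group biological replicates and say no more, so a p-value measures the spread between these samples. Leaf, root, nodule and flower markers met 0 names on the array, and the labelled tissue could therefore not be checked.

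Each value is the log2 signal of a probe from which the 75th percentile of its array was subtracted, and a change is a difference between 2 group means on that scale. Unelicited arrays 1 and 2 were on slide 1 and the other 8 arrays on slide 2, so each comparison was repeated on slide 2 alone. The unelicited arrays of slide 2 minus those of slide 1 gave a median of -0.42 over 38 member probes, with a range from -2.64 to 3.16, and 18 of the 38 differed by more than 1 in size. Correlations between unelicited arrays lay between 0.827 and 0.978. On each array 2644 to 3805 probes had a signal well above background, and saturated spots numbered 0. FOLGT probes well above background numbered 13 to 19 of 32 on each array, whereas IFLGT probes numbered 21 to 25 of 32 on unelicited arrays and 10 to 17 on GSH arrays. The share over all probes was lower on GSH arrays too, at 46.3% to 53.6%, beside 55.4% to 66.6% on unelicited arrays.

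Of the 64 member probes, 38 (16 FOLGT and 22 IFLGT, for 10 and 13 names) were tested with limma, having a signal well above background throughout 1 or more of the 3 groups. Among these 38, 12 passed the filter through the unelicited group only (2 FOLGT, or 12.5%, and 10 IFLGT, or 45.5%), and such probes could hardly do other than fall. Over all 3309 tested probes, 18.3% passed that way. The counts of falls below describe these members and carry no weight of their own. The counts for each prefix are followed by those over probes well above background on all 10 arrays. That set leaves out probes that fell to background, so its few falls carry no weight either. The 9 names with no tested probe were FOLGT05, FOLGT06, FOLGT07, FOLGT14, FOLGT15, FOLGT18, IFLGT14, IFLGT16 and IFLGT17, and 6 of these had neither probe well above background on any array.

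The array carries a second set of names for nearly the same loci. Of the 32 member names, 30 end in a locus that also appears under a UGT family name (60 further probes), which places them in the UDP-glycosyltransferase superfamily by a second naming on the same array. The 2 without a second name were FOLGT03 and IFLGT06 on chromosome 3. The prefixes do not follow the families. UGT73B held 19 of the names (8 FOLGT and 11 IFLGT), UGT91H held 5 (2 and 3), UGT78D held 2 (1 and 1), UGT71B held 2 FOLGT names, and UGT87E and UGT90A held 1 FOLGT name each. In Arabidopsis, UGT78D enzymes add sugars to flavonols and several UGT73B enzymes glucosylate flavonoids, and in soybean a UGT91H enzyme adds rhamnose to triterpenoid saponins.

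After 3 h in GSH, 7 of 16 tested FOLGT probes rose (5 names), 3 fell (2 names) and 6 did not pass, with a median change of 1.12. Of the IFLGT probes, 4 of 22 rose (2 names), 12 fell (8 names) and 6 missed the threshold, and the median was -1.72. Over all 3309 probes 37.5% were called higher and 36.7% lower at an adjusted p under 0.05, with a median of -0.05. With both prefixes together, 11 of 38 rose and 15 fell, and their median was -0.02. The medians depended on the scaling and on which probes entered. The IFLGT median was -0.47 without GSH 3 h replicate 3, -0.67 without GSH 6 h replicate 3 and -0.03 with no filter. Each of these let in further dim probes. With no filter the FOLGT median was 0.47, beside 0.27 over all probes. With the 75th percentile taken over probes measured on all arrays, the FOLGT median was 0.05 and the IFLGT median -2.79. Over all probes it was then -1.11. Over probes measured on all 10 arrays, 7 of 13 FOLGT probes rose and 0 fell (median 2.43), and 4 of 10 IFLGT probes rose and 1 fell (median 0.56), beside 45.1% higher and 25.8% lower among all such probes (median 0.60). That set leaves out every probe that fell to background, so few falls could remain in it. The IFLGT median there stood near that of all such probes.

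After 6 h, 9 of 16 FOLGT probes rose (6 names) and 4 fell (3 names), with a median of 1.62. Of the IFLGT probes, 6 of 22 rose (3 names) and 12 fell (8 names), with a median of -1.93. The background was 37.5% higher and 38.4% lower, with a median of -0.07. The IFLGT median was -0.40 without GSH 3 h replicate 3, -1.07 without GSH 6 h replicate 3 and 0.01 with no filter. With no filter the FOLGT median was 0.90, beside 0.53 over all probes. With the 75th percentile taken over probes measured on all arrays, the FOLGT median was 0.55 and the IFLGT median -2.99. Over all probes it was then -1.13. Over probes measured on all 10 arrays, 9 of 13 FOLGT probes rose and 1 fell (median 1.91), and 6 of 10 IFLGT probes rose and 1 fell (median 0.97), beside 44.6% higher and 27.5% lower (median 0.59). The 3 h and 6 h comparisons share the 4 unelicited arrays and are not independent of each other. No test of one prefix against the other was made, since members are not replicates.

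The called members were 26 probes at 3 h and 31 at 6 h, beside 74.2% and 75.9% of all probes called in either direction, and in each of them the 2 groups did not overlap. Of all 38 tested members the groups did not overlap in 30 and 31 (78.9% and 81.6%), beside 75.6% and 74.3% of all tested probes. All 26 and 31 calls were the same on slide 2 alone, where 78.1% and 79.1% of probes were called.

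**Figure D1:**
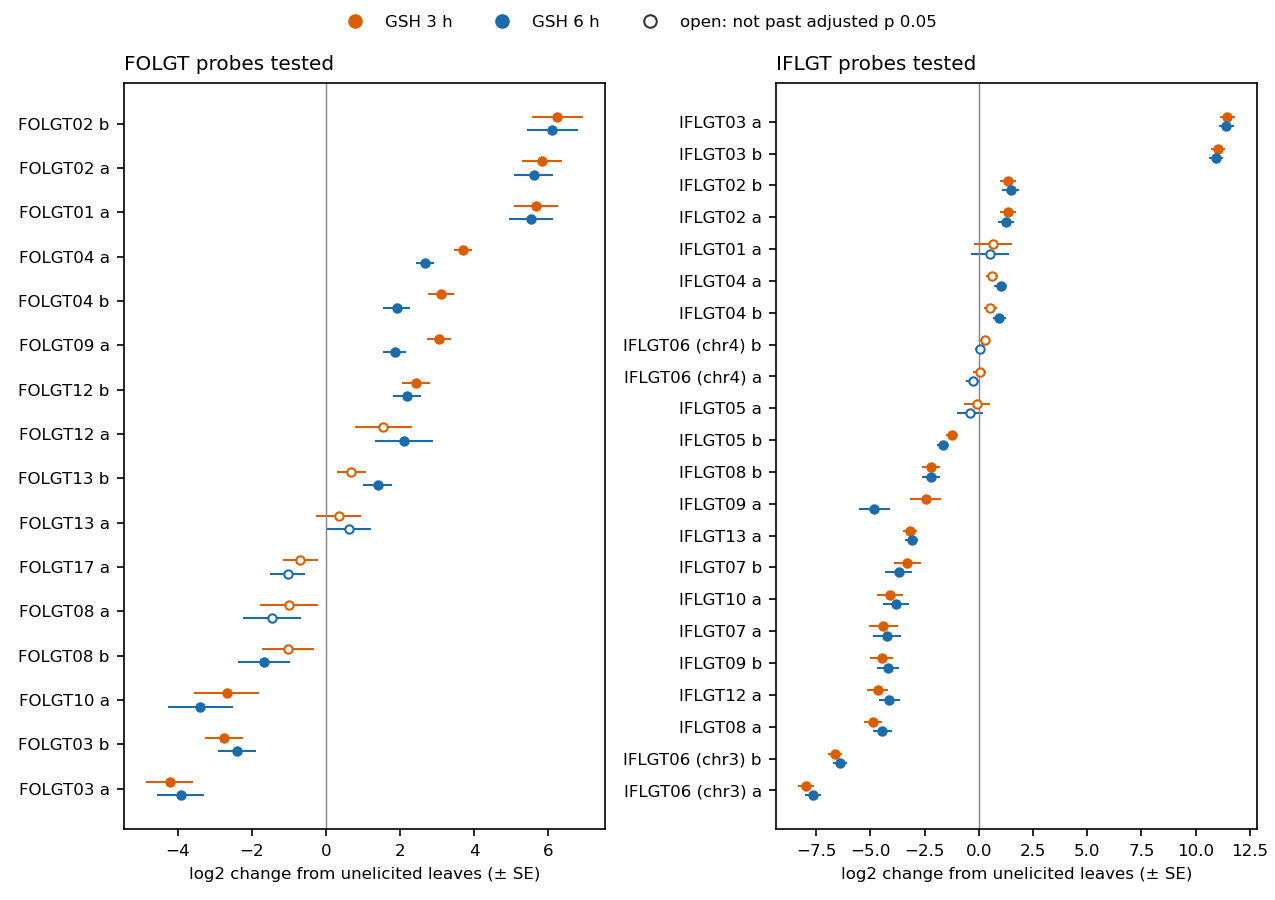
Change in log2 signal from unelicited leaves for each tested FOLGT probe (left) and IFLGT probe (right), with bars of 1 SE from limma and open points where the adjusted p was not under 0.05. IFLGT03 rose by about 11 on both probes, and FOLGT01 and FOLGT02 rose by between 5.54 and 6.24. For FOLGT03, IFLGT07, IFLGT08, IFLGT10, IFLGT12, IFLGT06 of chromosome 3 and IFLGT09 probe b, the GSH signals were at background. Their points show the fitted differences and are not lower bounds. The folds given as lower bounds in the text are smaller than these differences, so the plotted sizes of these falls should not be read as minimum falls. The horizontal scales of the 2 panels differ, and changes near 0 turn sign with the scaling.

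Among all members the largest rise was that of IFLGT03, a UGT73B locus on chromosome 4. Probe a gave -3.95, -3.42, -3.68 and -4.72 in unelicited leaves, 7.13, 7.53 and 7.89 after 3 h, and 7.21, 7.86 and 7.35 after 6 h. It was well above background on all 10 arrays, and the GSH arrays lay far above every unelicited array. The change was 11.46 ± 0.36 (SE) at 3 h and 11.42 ± 0.36 at 6 h, a 2810-fold and a 2730-fold difference, with limma adjusted p-values of 1.24e-08 and 8.54e-09. Probe b rose by 11.03 and 10.95, and on slide 2 alone probe a rose by 11.72 and 11.68. The dimmest well measured signals of the unelicited arrays were -5.79 to -4.81, so the unelicited values of IFLGT03 were dim. The size of its rise depended on the processing. With normexp background correction probe a rose by 9.24 and 9.64, and with median scaling by 12.4 and 12.29.

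IFLGT02, from the same clone, rose far less. Probe a gave 3.67, 4.11, 3.70 and 3.07 in unelicited leaves, 4.87, 4.84 and 5.26 at 3 h, and 5.65, 4.76 and 4.31 at 6 h. The lowest GSH array lay above the highest unelicited array by a small margin. The change was 1.35 ± 0.37 at 3 h (limma adjusted p = 0.00702) and 1.27 ± 0.37 at 6 h (adjusted p = 0.0096), and probe b gave 1.35 and 1.46. This call rests on the scaling, because with quantile normalization probe a changed by -0.93 and -1.15 and did not pass.

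IFLGT04, a UGT73B locus on chromosome 6, gave 3.98, 4.26, 4.04 and 3.55 there on probe a. It gave 4.36, 4.48 and 4.84 at 3 h and 5.15, 5.22 and 4.52 at 6 h. The change of 0.60 ± 0.29 at 3 h did not pass, and that of 1.00 ± 0.29 at 6 h did (limma adjusted p = 0.00915). Quantile normalization turned both into falls that passed, of -1.68 and -1.46, so no direction is given for it.

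Of the 8 IFLGT names with a fall, 5 had no tested probe well above background on any GSH array. These were IFLGT06 of chromosome 3, IFLGT07, IFLGT08, IFLGT10 and IFLGT12. IFLGT06 of chromosome 3, the locus with no UGT name, gave 0.80, 0.70, 1.48 and 1.53 on the unelicited arrays for probe a. After GSH it gave -7.02, -7.42 and -6.05 at 3 h and -6.78, -6.38 and -6.42 at 6 h, not well above background on any of these 6 arrays. Where a group has no array well above background, a fold is given as a lower bound, set by the dimmest well measured probe of each array. Probes with a bound passed the filter through the unelicited group only, so no p-value is given beside it. IFLGT06 of chromosome 3 was at least 54.6-fold lower at 3 h and at least 42.9-fold lower at 6 h. For probe b the bounds were 25.8 and 20.3. In whole leaves, a smaller share of the cells that hold a transcript and less RNA per cell cannot be told apart.

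The 3 tested UGT91H names, IFLGT08, IFLGT10 and IFLGT12, had 4 tested probes, all of which passed the filter through the unelicited group only. All 4 were called lower at both times, beside 36.7% and 38.4% of all probes, and are given as bounds. IFLGT08 probe a gave -1.68, -1.47, -3.04 and -1.86 in unelicited leaves and between -7.45 and -6.20 on the 6 GSH arrays. It was at least 6.18-fold lower at 3 h and at least 4.86-fold lower at 6 h. IFLGT12 probe a gave -1.23, -1.38, -3.24 and -2.39 without elicitation and between -7.33 and -6.11 with GSH, at least 5.99-fold and 4.71-fold lower. IFLGT10 probe a was at least 3.98-fold and 3.13-fold lower. For all 3 names, no GSH array was well above background, and the unelicited arrays all lay above the GSH arrays.

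IFLGT07, which shares its locus with a UGT78D name, gave -0.55, -0.65, -2.86 and -2.70 in unelicited leaves, -5.61, -6.53 and -6.18 at 3 h and -6.56, -6.30 and -4.94 at 6 h on probe a. Its unelicited values split by slide, and both slides lay above all GSH arrays. It was at least 7.73-fold lower at 3 h and at least 6.08-fold lower at 6 h. Its probes passed the filter through the unelicited group only. The other UGT78D locus, FOLGT17, gave 1.03, 1.28, 0.54 and 0.18 in unelicited leaves, 0.15, -0.14 and 0.20 at 3 h and -0.28, 0.80 and -1.34 at 6 h. Its groups overlapped and its changes of -0.69 and -1.03 did not pass. At 3 h the 95% interval of that change ran from -1.74 to 0.36. With the 75th percentile taken over probes measured on all arrays, FOLGT17 passed as lower at both times (-1.75 and -2.09). Quantile normalization called it lower at 6 h (-1.26), and median scaling gave 0.25 and -0.15 without passing.

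IFLGT09 and IFLGT13, both UGT73B, fell without vanishing from every GSH array. IFLGT09 probe a gave 0.49, 0.19, -0.41 and 0.51 in unelicited leaves, -1.43, -2.62 and -2.73 at 3 h and -2.78, -6.47 and -4.63 at 6 h. All 3 arrays at 3 h were well above background, but only 1 at 6 h was. The change was -2.46 ± 0.73 at 3 h and -4.82 ± 0.73 at 6 h (limma adjusted p = 0.0111 and 0.000151), and probe b was at least 4.96-fold and 3.90-fold lower. With median scaling the 3 h change of probe a was -1.51 and did not pass. IFLGT13 probe a fell by 3.18 and 3.1, with 2 and 1 of 3 GSH arrays well above background.

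The remaining IFLGT names changed little or unevenly. IFLGT05 probe b fell by 1.25 and 1.65, whereas probe a changed by -0.09 and -0.40 and did not pass. Its unelicited values on probe a were 1.16 and 1.21 on slide 1 and 3.44 and 3.66 on slide 2, and on slide 2 alone probe a fell by 1.27 and 1.58. With median scaling IFLGT05 probe b changed by -0.31 and -0.77 and did not pass. IFLGT01 changed by 0.65 and 0.52 with overlapping groups, and its 95% interval at 3 h ran from -1.32 to 2.61. IFLGT06 of chromosome 4 changed by 0.04 and -0.29 on probe a, with a 95% interval from -0.63 to 0.72 at 3 h. With the 75th percentile taken over probes measured on all arrays, both its probes fell at 3 h, by 1.02 and 0.77. Quantile normalization called probe a lower (-0.98) and probe b higher (0.6) at 3 h. Median scaling called probe b higher at both times (1.24 and 0.9), so no direction is given for IFLGT06 of chromosome 4.

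**Figure D2:**
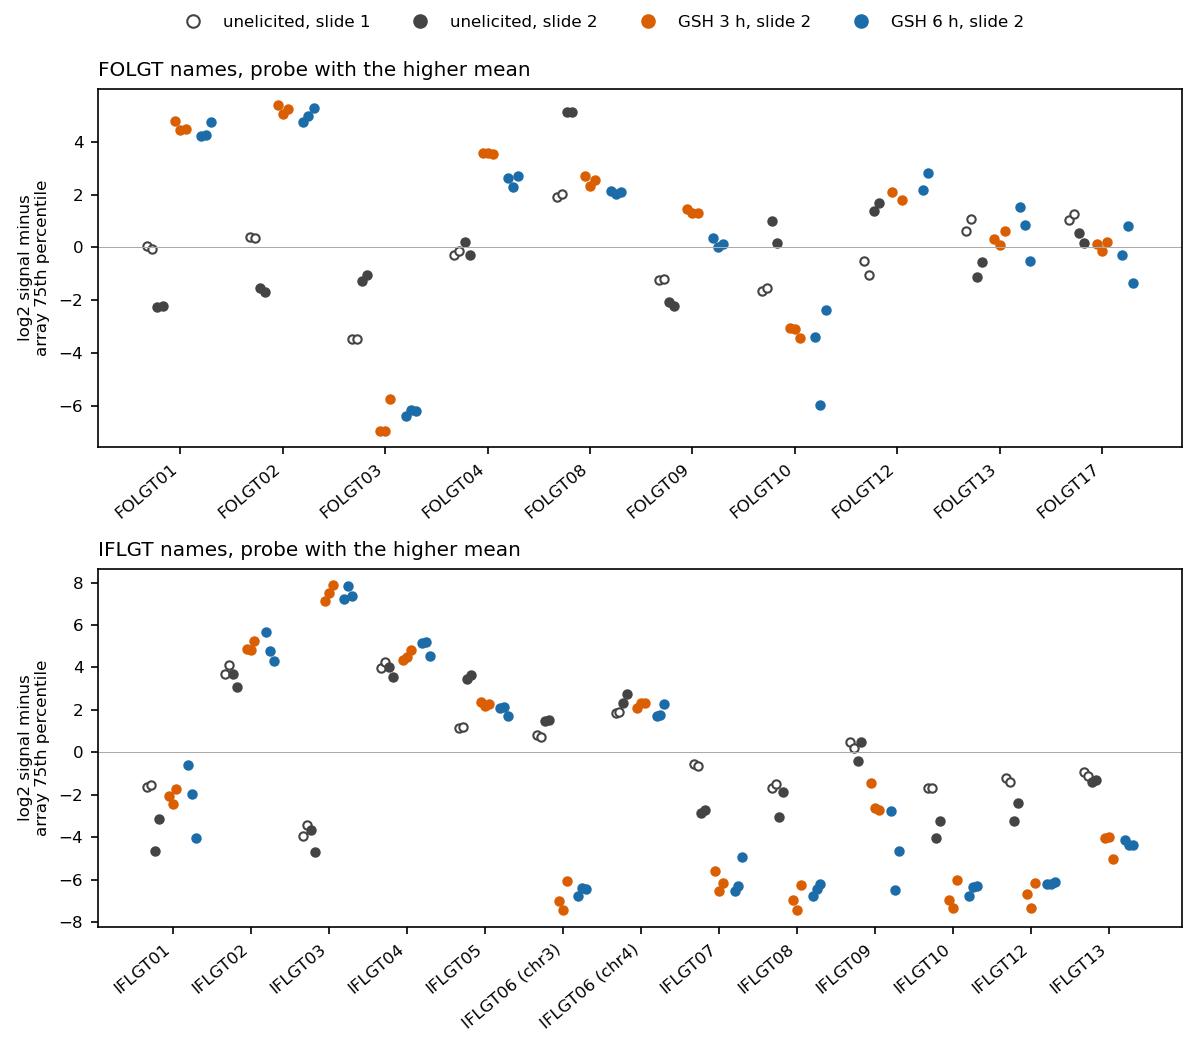
Log2 signal minus the array's 75th percentile on each of the 10 arrays, for probe a of every tested FOLGT name (top) and IFLGT name (bottom), with open points for the unelicited arrays of slide 1. IFLGT03 moved from below -3 to above 7, IFLGT06 of chromosome 3, IFLGT07, IFLGT08, IFLGT10 and IFLGT12 moved to about -6, and for FOLGT08 the unelicited arrays of slide 1 lay below the GSH arrays and those of slide 2 above them. A level depends on the probe, so heights of different names cannot be compared.

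All FOLGT rises came from UGT73B loci, which held 12 of the 16 tested FOLGT probes. Of the 12 tested FOLGT probes with a UGT73B name, 7 rose and 0 fell at 3 h, and 9 rose and 1 fell at 6 h. The 14 tested IFLGT probes of the same family gave 4 rises and 4 falls at 3 h and 6 and 4 at 6 h. Of these 14, IFLGT09 probe b and IFLGT13 probe a passed the filter through the unelicited group only. Over all tested probes 37.5% rose and 36.7% fell at 3 h, and 37.5% and 38.4% at 6 h. The median change of the UGT73B probes at 3 h was 2.73 under FOLGT and 0.41 under IFLGT. Among UGT73 probes at loci of no member, 13 of 25 rose (52%) and 9 fell (36%) at 3 h, with a median of 1.53.

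FOLGT02 on chromosome 1 gave 0.38, 0.37, -1.52 and -1.69 in unelicited leaves, 5.38, 5.04 and 5.24 at 3 h and 4.74, 4.96 and 5.26 at 6 h on probe a. Every GSH array stood well above every unelicited array, and the unelicited arrays split by slide. It rose by 5.83 ± 0.53 and 5.60 ± 0.53, a 57.1-fold and a 48.5-fold difference (limma adjusted p = 4.39e-06 and 5.48e-06), and probe b rose by 6.24 and 6.10. On slide 2 alone the rise of probe a was 6.82 and 6.59.

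FOLGT01, on another clone of chromosome 1, behaved much the same. Probe a gave 0.05, -0.05, -2.26 and -2.21 in unelicited leaves, 4.77, 4.43 and 4.47 at 3 h and 4.23, 4.27 and 4.76 at 6 h. Its rise was 5.67 ± 0.59 and 5.54 ± 0.59 (limma adjusted p = 1.11e-05 and 1.21e-05), 51-fold and 46.5-fold. On slide 2 alone it was 6.79 and 6.66. Probe b was not tested and showed no such rise. Its means were -5.15 in unelicited leaves, -5.16 at 3 h and -5.1 at 6 h. It was dim, and well above background on 5 of the 10 arrays, so the rise of FOLGT01 rests on probe a.

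FOLGT04 on chromosome 4 and FOLGT09 on chromosome 1 rose less. FOLGT04 probe a gave -0.28, -0.14, 0.21 and -0.30 in unelicited leaves, 3.57, 3.58 and 3.54 at 3 h and 2.62, 2.28 and 2.71 at 6 h. The 3 groups did not overlap. It rose by 3.69 ± 0.24 at 3 h and 2.67 ± 0.24 at 6 h (limma adjusted p = 4.59e-07 and 4.14e-06), 12.9-fold and 6.36-fold, and probe b rose by 3.1 and 1.91. FOLGT09 probe a gave -1.23, -1.20, -2.07 and -2.22, then 1.47, 1.31 and 1.30, then 0.35, 0.02 and 0.13. It rose by 3.04 ± 0.32 and 1.85 ± 0.32 (limma adjusted p = 1.09e-05 and 0.000355). With the 75th percentile taken over probes measured on all arrays, the 6 h rises of FOLGT09 (0.78) and of FOLGT04 probe b (0.85) no longer passed.

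FOLGT12 was measured by probes that differed. Probe a gave -0.50, -1.05, 1.37 and 1.69 in unelicited leaves, 2.08 and 1.78 at 3 h and 2.17 and 2.80 at 6 h, with 1 outlier spot left out of each GSH group. The change of 1.55 at 3 h did not pass, and that of 2.11 at 6 h did (limma adjusted p = 0.0364), and on slide 2 alone the changes were 0.40 and 0.95. Leaving out unelicited replicate 1 ended the 6 h call of probe a (limma adjusted p = 0.0687), as did leaving out unelicited replicate 2 (0.0556), GSH 6 h replicate 2 or 3 (0.0784 and 0.17), or GSH 3 h replicate 1 or 3 (0.0545 and 0.0547). Probe b rose by 2.43 and 2.19. In the main fit FOLGT13 rose only on probe b at 6 h, by 1.39 (limma adjusted p = 0.00776), and its probe a changed by 0.61 and did not pass. With the 75th percentile taken over probes measured on all arrays, FOLGT13 probe b changed by 0.32 at 6 h and did not pass. On slide 2 alone its probe a passed at 6 h too, at 1.45 (limma adjusted p = 0.0337).

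The FOLGT falls were fewer. FOLGT03 on chromosome 3, which has no UGT name, gave -3.48, -3.45, -1.26 and -1.06 in unelicited leaves and between -6.93 and -5.75 on the GSH arrays, none of them well above background. It was at least 5.03-fold lower at 3 h and at least 3.95-fold lower at 6 h. Its probes passed the filter through the unelicited group only. FOLGT10, a UGT71B locus, gave -1.65, -1.55, 1.02 and 0.17, then -3.04, -3.09 and -3.43 at 3 h, and then -3.38, -5.96 and -2.36 at 6 h. It fell by 2.68 ± 0.87 and 3.39 ± 0.87 (limma adjusted p = 0.0167 and 0.00468). Leaving out GSH 3 h replicate 3 ended its 3 h call (change -2.56, limma adjusted p = 0.0531). Quantile normalization (-2.15), median scaling (-1.74) and normexp background correction (-1.25) ended that call too, whereas its 6 h call passed with each of these.

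The result for FOLGT08 depended on which unelicited arrays were used and on the scaling. Slide 1 held only unelicited arrays 1 and 2, so slide and leaf sample cannot be told apart. Probe a gave 1.92 and 2.01 on the unelicited arrays of slide 1, 5.12 and 5.14 on those of slide 2, 2.72, 2.34 and 2.57 at 3 h, and 2.13, 2.04 and 2.10 at 6 h. The GSH arrays therefore lay just above the unelicited arrays of slide 1 and well below those of slide 2. Over all arrays probe a changed by -1.0 and -1.46 and did not pass, and on slide 2 alone it fell by 2.58 and 3.04 (limma adjusted p = 1.42e-05 and 5.01e-06). Probe b passed over all arrays at 6 h with -1.68 (adjusted p = 0.0491). That call ended when any 1 of 8 arrays was left out, with adjusted p-values from 0.0638 to 0.118, and was kept without unelicited replicate 1 or 2.

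Between 3 h and 6 h, 0 of the 38 member probes passed in limma, beside a background of 3.35% of all probes called higher and 1.99% lower (5.35% in either direction), and 3 FOLGT probes and 1 IFLGT probe had an unadjusted p under 0.05. These were FOLGT04 probe a, at -1.02 ± 0.26 (limma adjusted p = 0.0511), FOLGT04 probe b, at -1.19 (0.107), FOLGT09 probe a, at -1.19 ± 0.34 (0.0709), and IFLGT09 probe a, at -2.37 ± 0.78 (0.11). All 6 arrays of this comparison were on slide 2. When that slide was fitted alone, the 3 FOLGT probes passed as lower at 6 h, with limma adjusted p-values of 0.0262, 0.0162 and 0.0109, beside 6.56% of all probes called lower. The probe with the UGT73B name of the FOLGT09 locus changed by -1.34 and passed over all arrays (limma adjusted p = 0.0408), and those of the FOLGT04 locus changed by -0.95 and -1.19 and did not.

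**Figure D3:**
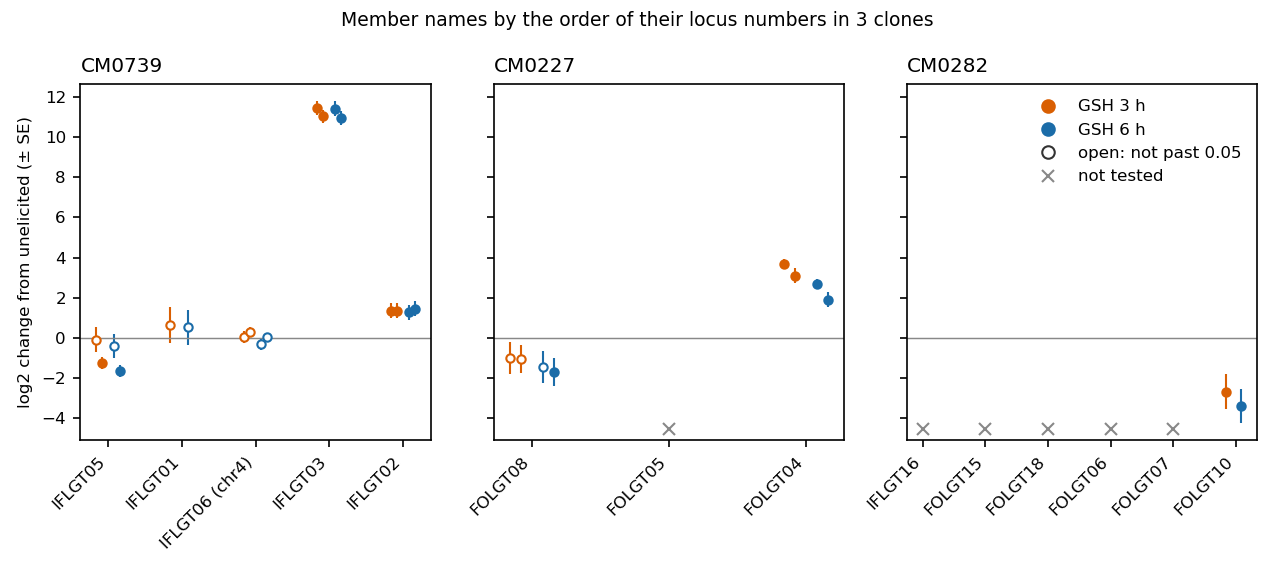
Change in log2 signal from unelicited leaves (with bars of 1 SE) for member names of 3 clones, in the order of the locus numbers in their names, with crosses at the lower edge for names not tested. In clone CM0739, IFLGT03 rose by 11.46 while 3 of its 4 neighbours changed by less than 1 on probe a. Small changes in this clone turn sign with the scaling.

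The members of a clone had unequal changes. The names place 5 IFLGT members in clone CM0739 of chromosome 4, in the order IFLGT05, IFLGT01, IFLGT06, IFLGT03 and IFLGT02, all with UGT73B names. The pairs below were chosen after their values were seen, so their differences are a description with no test. The difference between IFLGT03 and each neighbour on the same array, on probe a, changed from unelicited to GSH leaves by 10.13 against IFLGT02, 10.85 against IFLGT01, 11.56 against IFLGT06 and 11.68 against IFLGT05. On slide 2 these changes were 10.14, 9.96, 12.17 and 13.12.

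In clone CM0227 of chromosome 4, FOLGT08, FOLGT05 and FOLGT04 follow each other, and neither probe of FOLGT05 was well above background on any array. FOLGT04 minus FOLGT08 changed by 4.41 (5.91 on slide 2). Of the 2 loci that both carry the name IFLGT06, the one on chromosome 3 was at least 54.6-fold lower at 3 h on probe a, and the one on chromosome 4 changed by 0.04. Clone CM0282 of chromosome 3 holds 6 members, of which only FOLGT10 was tested.

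Probes with different names at 1 locus gave nearly the same change. At the 20 loci with tested probes under both a member name and a UGT name, the mean changes had the same sign at 20 loci at 3 h and at 20 at 6 h. The median gap was 0.10 and 0.185, and the largest was 1.36 and 1.25. The probe sequences are not given in the files used here, so the second probes may be the same or overlapping oligonucleotides and are not separate evidence. Probes a and b of a name differed by a median of 0.59 and 0.55 over 15 names with both tested. These are gaps between single probes and not between means, so the 2 sets of gaps are not like for like. The largest gap was 2.69 and 2.24, for IFLGT08, whose probes were not well above background on any GSH array. The 2 probes had the same call for 13 names at 3 h and 12 at 6 h, and opposite signs for 0 and 1.

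**Figure D4:**
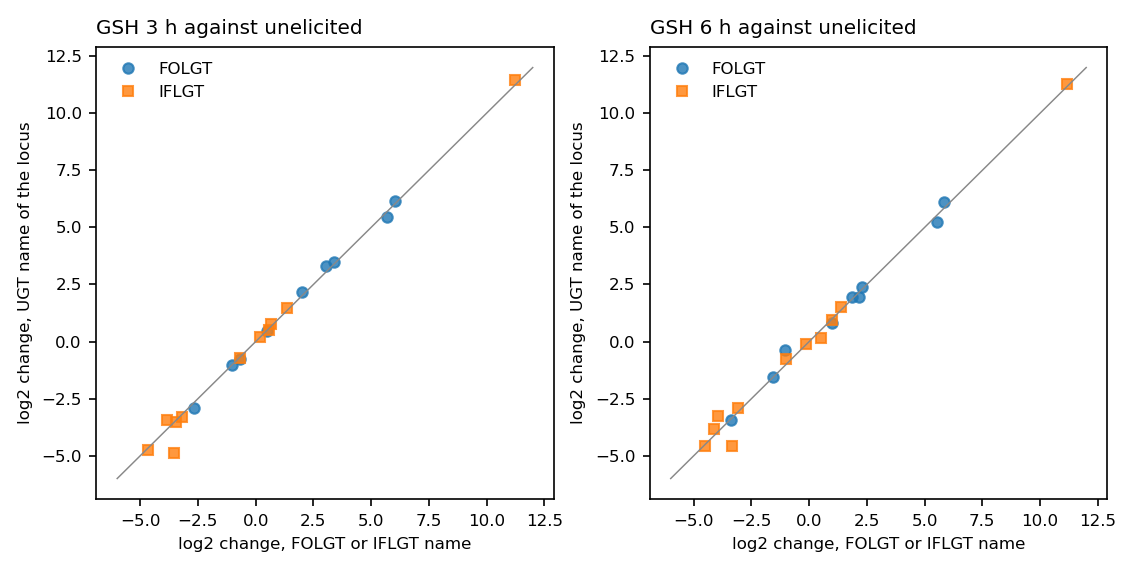
Mean change in log2 signal under the UGT family name (vertical) against that under the FOLGT or IFLGT name (horizontal) for the 20 loci tested under both, at 3 h and 6 h, with the line of equality. The points follow the line, with a median gap of 0.10 at 3 h and 0.185 at 6 h.

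Glycosyltransferases at other loci gave a frame for these counts. Of 185 tested UGT probes at loci of no member, 82 rose (44.3%) and 77 fell (41.6%) at 3 h, with a median change of 0.01, and at 6 h 84 rose and 76 fell, with a median of 0.37. Of 25 UGT73 probes among them, 13 rose and 9 fell at 3 h. The FOLGT share of rises at 3 h was 43.8%. The IFLGT share of falls was 54.5%, but 45.5% of the IFLGT probes had passed the filter through the unelicited group only, against 20.5% of these other UGT probes. Among the 112 other UGT probes measured on all arrays, 64 rose and 34 fell at 3 h (median 1.72). None of these differences was tested.

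Names of the flavonoid and isoflavonoid pathway were counted in the same way, and whether they supply acceptors of the members was not measured. Of 47 tested probes for phenylpropanoid entry (PAL and cinnamate hydroxylase), 45 rose and 2 fell at 3 h, with a median change of 4.57. Chalcone synthase, reductase and isomerase names gave 40 rises and 20 falls among 70 probes, the isoflavone skeleton 12 and 6 among 18, isoflavonoid decoration 13 and 6 among 21, and the late isoflavonoid reductases and related names 17 and 4 among 22. Flavonol, anthocyanidin and tannin names gave 2 rises and 14 falls among 18, with a median of -2.26. Names of beta-glucosidases, enzymes that can release a free compound from its glucoside, gave 19 rises and 40 falls among 66, with a median of -2.71. Whether these act on products of the members was not measured. At 6 h the corresponding counts were 45 and 2, 40 and 18, 12 and 6, 14 and 6, 17 and 3, 2 and 12, and 18 and 42. Over all tested probes the shares were 37.5% higher and 36.7% lower at 3 h, and 37.5% and 38.4% at 6 h. No test related the lists to one another or to the members.

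**Figure D5:**
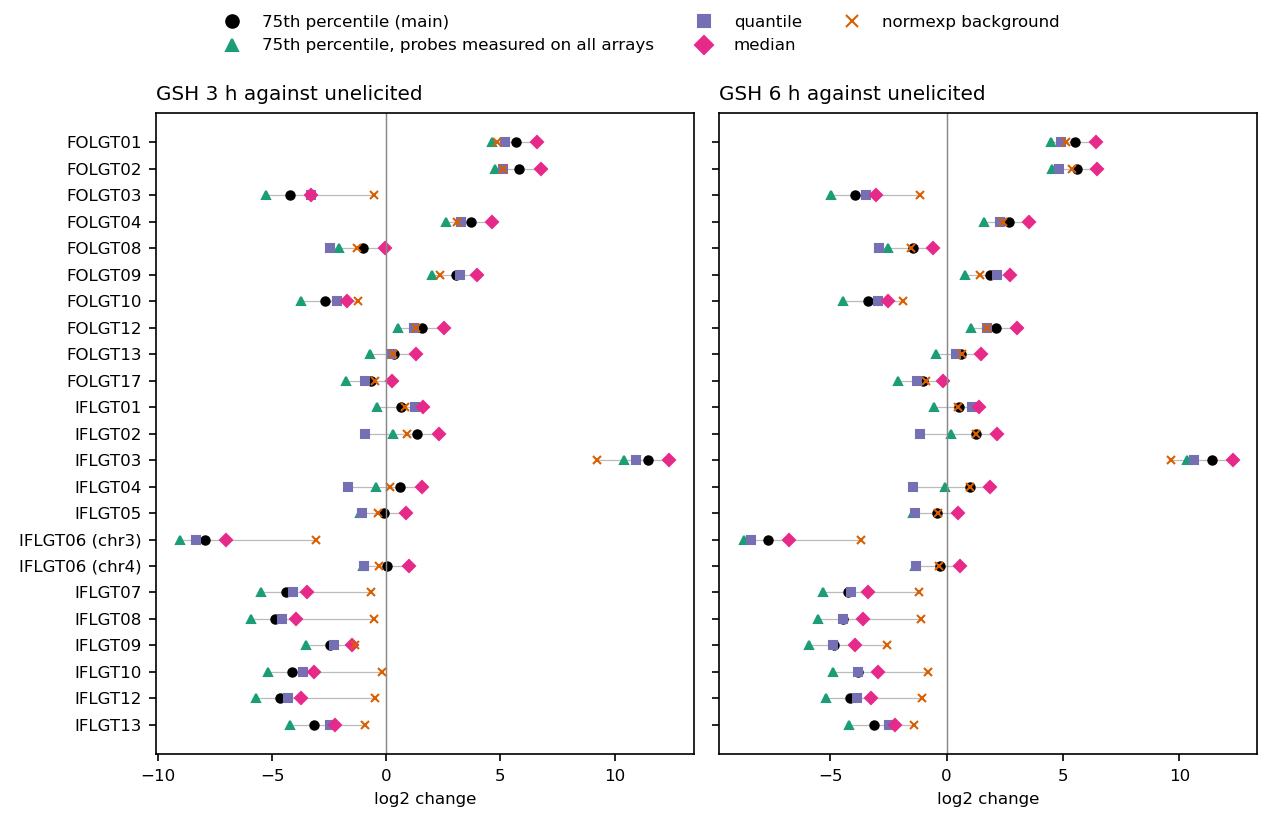
Change in log2 signal at 3 h (left) and 6 h (right) for probe a of each tested name under 4 scalings and with normexp background correction. The rises of FOLGT01, FOLGT02, FOLGT04 and IFLGT03 kept their sign in all 5 settings. IFLGT02 and IFLGT04 changed sign with the scaling, and normexp brought the falls of dim probes towards 0.

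Scaling set which smaller changes were called. Against a median change over all probes of -0.05 at 3 h with the main scaling, the 75th percentile over probes measured on all arrays gave -1.11 and median scaling gave 0.90, so every member moved with that shift. The split of all probes at 3 h was 1240 higher and 1216 lower in the main fit, 801 and 1660 in the former and 1591 and 838 in the latter. All 7 FOLGT rises at 3 h passed in all 3 other scalings, as did 5 of 9 at 6 h. Of the IFLGT rises, 2 of 4 and 2 of 6 did, all of them IFLGT03 probes. Of the IFLGT falls, 10 of 12 and 11 of 12 did. With normexp, which adds an offset and compresses dim signals, 3 of the 12 IFLGT falls at 3 h and 5 of 12 at 6 h passed, and 0 of 3 and 1 of 4 FOLGT falls.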

How the data were processed

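The deposited files hold the linear intensity of each spot, 1 file per array, made with Agilent Feature Extraction 10.7.3.1 per the submitters' processing notes. The processed signal is background-subtracted per the file headers and was not scaled between arrays. The deposited value table equals it for all 6252 features. Here log2 of the deposited processed signal was taken and the 75th percentile of the non-control probes on the same array was subtracted (a signal of 227.25 to 1022.5). Outlier spots (4 to 64 per array) were left out. Probes had to be well above background throughout 1 or more groups (3310 were, of which 1 had no estimate). Group means over all 10 arrays were fitted in limma 3.58.1 (R 4.3.3; 3.05 prior degrees of freedom). Tests were two-sided, and p-values were adjusted over 3309 probes by Benjamini-Hochberg at 0.05. Figures used matplotlib 3.10.9 under Python 3.11.15.

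The members, lists and alternatives were chosen with earlier results of these data known. Values in every sample are given for up to 4 rises and 4 falls per prefix and comparison with unelicited leaves, up to 3 in each direction between times, and the member of each prefix with the highest probe signal in unelicited leaves (FOLGT08 and IFLGT04), which is no ranking of transcripts. Replicate numbers were not used to pair the samples in the main fit. The code was tested on simulated data. The number of arrays limits the precision. Alternatives covered background, scaling, the filter, the variance model, slide, replicate blocks, averaged probes and each array left out. No sequences or genome positions were used.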

Additional observations from a re-analysis of the deposited data

How the results depend on the processing

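The counts of FOLGT probes higher at 3 h (7), and of both prefixes higher between 3 h and 6 h (0), stayed within 1.5 times under all alternatives run. With normexp background, 0 FOLGT probes were lower, 2 IFLGT probes higher and 3 IFLGT probes lower at 3 h, and 1 FOLGT and 5 IFLGT probes were lower at 6 h. With the 75th percentile taken over probes measured on all arrays, 6 FOLGT probes were lower and 2 IFLGT probes higher at 3 h, and 5 FOLGT and 2 IFLGT probes were higher at 6 h. Quantile normalization left 2 IFLGT probes higher at 6 h, and median scaling gave 7 IFLGT probes higher at 3 h and 2 FOLGT probes lower at 6 h than at 3 h. Testing only probes measured on all arrays, which removes those that fell to background, left 0 FOLGT and 1 IFLGT probe lower at 3 h, 1 and 1 at 6 h, and 1 FOLGT probe lower between times. With slide as a block, and on slide 2 alone, 5 FOLGT probes were lower at 3 h and 3 between times. The variance trend with robust fitting gave 1 FOLGT probe, and averaging probes of a name 1 FOLGT name, lower between times.

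Among members called in the main or the other setting, signs turned as follows, and the cause was not tested. With normexp background, FOLGT03 probe b changed by 0.25 and IFLGT08 probe b by 0.54 at 3 h. With the 75th percentile taken over probes measured on all arrays, IFLGT06 of chromosome 4 changed by -1.02 (probe a) and -0.77 (probe b) at 3 h and by -1.04 (probe b) at 6 h, and IFLGT04 by -0.06 and -0.13 at 6 h. With quantile normalization, IFLGT02 probe a changed by -0.93 and -1.15, IFLGT04 probe a by -1.68 and -1.46, IFLGT04 probe b by -1.39 and -1.23, and IFLGT06 of chromosome 4 probe a by -0.98 at 3 h. Members called in neither setting turned sign too, in 7 comparisons with that 75th percentile, 4 with median scaling, 2 with normexp and 0 with quantile normalization.

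Leaving out 1 array at a time gave 7 to 8 FOLGT probes higher and 2 to 3 lower at 3 h, 4 to 5 IFLGT probes higher and 12 to 12 lower; at 6 h 8 to 9, 3 to 5, 5 to 7 and 12 to 12. Between times it gave 0 to 1 lower for each prefix, 1 FOLGT probe without unelicited replicate 3 and 1 IFLGT probe without GSH 6 h replicate 1, and 0 to 0 higher. FOLGT17 probe a passed at 6 h without unelicited replicate 4 (-1.22) or GSH 6 h replicate 2 (-1.57), and IFLGT04 probe b lost its 6 h call without GSH 6 h replicate 1 (0.87) or 2 (0.83). Deviations of samples with the same replicate number correlated between -0.0437 and 0.0634. With so few samples in a group this cannot show whether samples were paired, and the numbers are read as sample names. With the replicate block, FOLGT08 probe b (-1.14) and IFLGT04 probe b (0.75) no longer passed at 6 h and FOLGT17 probe a (-1.22) did, and no other member call changed. Signal over background limits the falls, since 11 of 15 probes called lower at 3 h and 11 of 16 at 6 h were not well above background on any GSH array.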

Other observations

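Some members without a test had signal on part of the arrays. IFLGT17 was well above background on 6 arrays with probe a and on 5 with probe b, and IFLGT14 probe a on 5. A probe under the UGT73B name of the IFLGT17 locus was tested. It rose by 1.84 at 3 h (limma adjusted p = 0.0311) and changed by 1.47 at 6 h without passing (adjusted p = 0.0709).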
